A study of Mus musculus with 4 samples.

Results

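Bin1, Picalm, Cd2ap, Rin3, Sorl1, Abca7, Ptk2b, Abi3 and Cass4 are the mouse counterparts of 9 human genes that lie at risk loci for late-onset Alzheimer's disease and act in endocytosis, endosomal sorting, lipid transport, cell adhesion or the actin cytoskeleton. They were picked by gene symbol, and all 9 were found among the 49993 genes with a count and passed the filter on low counts (21439 genes tested). RNA was sequenced from CD11b+ microglia of 10-month-old mouse brain, isolated with magnetic beads. All mice carried the APP/PS1 transgenes, which lead to amyloid deposits. Of the 4 libraries, 2 were labelled APP/PS1+ asrij+/+ (AD) and 2 APP/PS1+ asrij-/- (AD/KO), a constitutive deletion and so not restricted to microglia. The labels gave neither the sex of the mice nor the number of mice per library. They did not say that the 2 libraries of a group came from separate mice, so the p-values measure only the spread between these libraries. That spread may be technical, though the 2 AD libraries differed in an RNA of female cells, as given below. No library without APP/PS1 was analysed here. The question the comparison addresses is whether asrij bears on microglia in this model.

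Cells take up surface proteins by forming coated pits, which pinch off, shed their coat and fuse with early endosomes. Cargo is then returned to the surface, sent to the Golgi or passed to lysosomes. Bin1, Picalm, Cd2ap and Rin3 act on the uptake side of this route, Sorl1 sorts cargo within it, and Abca7 moves lipids across membranes. Ptk2b, Abi3 and Cass4 act where integrins meet the actin cytoskeleton, which microglia remodel as they move and engulf. Several of these genes are also used by neurons, other glia or vessels, so that a bulk library can draw on more than 1 cell type for them.

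The libraries held 13102622 to 19810076 counts. Ociad1, the mouse gene for asrij, was at 50.2 and 63.4 CPM (read counts scaled to library size, with TMM factors that align the libraries on most genes) in the AD libraries and at 38.9 and 32.1 CPM in the AD/KO libraries. Its log2 fold change (AD/KO minus AD throughout) was −0.68 (SE 0.29), with an adjusted p of 0.680 (edgeR quasi-likelihood, Benjamini-Hochberg over all genes tested). Its AD/KO values lay below the AD values but far from 0, so AD and AD/KO stand for the labels of the libraries throughout. All 20 microglia markers examined were present in every library, the lowest being Gpr84 at 16.6 CPM in AD/KO replicate 2. Their mean log2 CPM was 9.37 and 8.82 in AD replicates 1 and 2 and 9.30 and 7.56 in AD/KO replicates 1 and 2. The neuron and astrocyte markers ran the other way, at 4.85, 6.39, 6.39 and 7.83 in the same order. AD replicate 2 stood apart in neutrophil markers (14 genes, 5448 summed CPM against 419 to 644 in the other libraries) and in Xist (1391 counts against 3 to 15), the RNA that silences 1 X chromosome in female cells. The 2 AD libraries thus differed in a marker of female cells, in which both AD/KO libraries were low. The part of sex in the levels was not tested. By the marker means, AD/KO replicate 2 had the least microglial and the most neuronal and astrocytic signal. In bulk RNA, fewer microglia and less RNA per microglial cell cannot be told apart.

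None of the 9 genes differed between the groups past the threshold. In the edgeR quasi-likelihood fit over all genes, 0 of 9 reached a Benjamini-Hochberg adjusted p under 0.05, against 0% of all genes. At an unadjusted p under 0.05 the count was 0 of 9, against 5.0% of all genes (1072). With DESeq2, 0 of 9 passed, against 0.440% of all genes. With the replicate number as a block, which the labels do not say pairs the libraries, 3 of 9 passed (Cd2ap, Rin3 and Cass4), against 20.2% of all genes. The estimate was lower in AD/KO for 7 genes and higher for 2 (Sorl1 and Abca7), with a median log2 fold change of −0.53 against −0.05 over all genes tested. With the libraries scaled to the microglia markers, the estimate was lower for 3 of the 9 (Rin3, Abi3 and Cass4) and higher for 6, with a median of 0.08 against 0.79 over all genes. Cd2ap was the 1 gene of the 9 whose AD/KO libraries both lay below both AD libraries, and 21.7% of all genes tested did so. In 0 of 9 did both AD/KO libraries lie above both AD libraries, against 20.3% of all genes tested. The 9 genes instead split by how they followed the individual libraries, as described next. Patterns like theirs were common among the other genes, as given below.

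**Figure D1:**
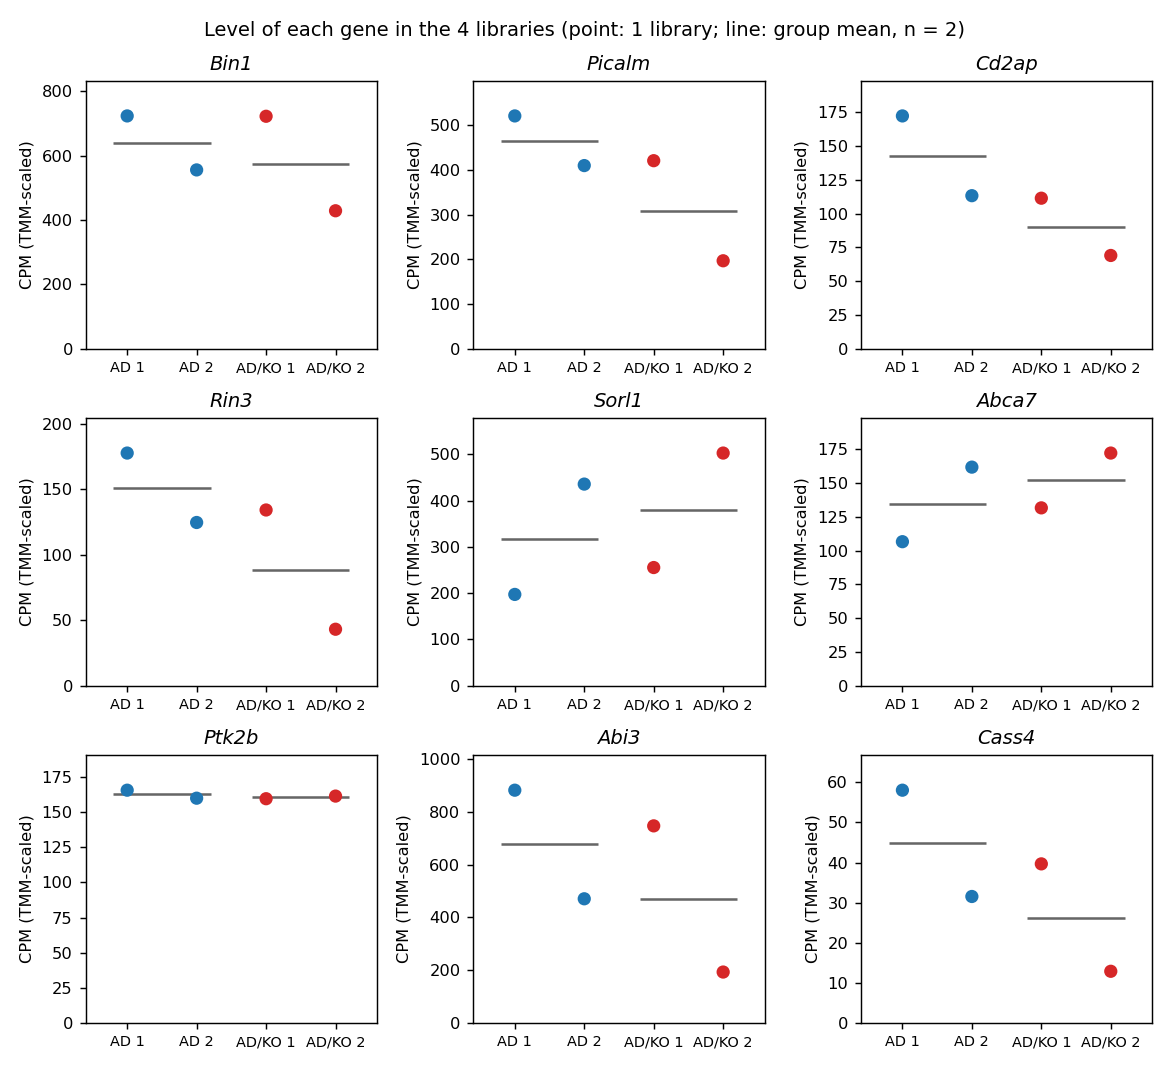
CPM after TMM scaling (vertical axes, each starting at 0) of the 9 genes in the 4 libraries; each point is 1 library and each line the mean of the 2 libraries of a group. AD/KO replicate 2 is the lowest library for Bin1, Picalm, Cd2ap, Rin3, Abi3 and Cass4 and the highest for Sorl1 and Abca7, while Ptk2b is level.

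The promoters of Picalm, Cass4 and Sorl1 are shown because Picalm and Cass4 had low values where the microglia markers were low, whereas Sorl1 had high values there. The sequences come from RefSeq (GRCm38.p6), run 5′ to 3′ on the gene's strand and end 1 base before the gene's outermost start. Capitals mark CACGTG, the E-box bound by MITF and TFE factors, which govern lysosomal genes. The table had windows for Picalm, Cd2ap, Rin3, Sorl1, Abca7 and Cass4, with 2 each for Rin3 and Sorl1. For Sorl1 the window at the outermost start is printed. Rin3 and Abi3 also had low values where the microglia markers were low, but Abi3 had no window. The 2 windows of Rin3 lay mostly or wholly past its outermost start and are not printed. Abca7 had high values where the microglia markers were low, as Sorl1 did, but its window was not chosen for printing.
Picalm, chr7:90129963-90130191, plus strand: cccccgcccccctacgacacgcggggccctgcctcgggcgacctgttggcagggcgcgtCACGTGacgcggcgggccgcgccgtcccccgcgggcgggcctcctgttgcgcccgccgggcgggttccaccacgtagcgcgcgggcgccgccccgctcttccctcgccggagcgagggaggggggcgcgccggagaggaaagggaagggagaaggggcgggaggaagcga
Cass4, chr2:172393394-172393643, plus strand: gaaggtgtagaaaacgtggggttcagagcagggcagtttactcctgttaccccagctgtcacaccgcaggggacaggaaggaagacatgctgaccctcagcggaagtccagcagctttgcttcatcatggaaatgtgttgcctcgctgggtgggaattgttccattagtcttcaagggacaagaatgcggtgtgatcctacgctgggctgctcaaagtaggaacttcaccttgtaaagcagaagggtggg
Sorl1, chr9:42124298-42124547, minus strand: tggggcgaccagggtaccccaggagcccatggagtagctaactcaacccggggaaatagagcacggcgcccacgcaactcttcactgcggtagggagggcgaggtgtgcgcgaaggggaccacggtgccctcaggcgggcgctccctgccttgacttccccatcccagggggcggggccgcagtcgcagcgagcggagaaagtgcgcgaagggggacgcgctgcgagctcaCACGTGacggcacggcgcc

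The windows differed in base composition. Over the 250-base windows of the table, which for Picalm reach past the printed end, G and C made up 79.2% for Picalm, 69.6% for the printed window of Sorl1 and 52.8% for Cass4, against a median of 52.4% over 32851 promoters, and CG dinucleotides numbered 39, 26 and 6. The other Sorl1 window, at an inner start, had 47.2% G and C, 9 CG dinucleotides and 0 matches of any of the 3 motifs. CACGTG occurred once in the Picalm window and once in the printed one of Sorl1, and in 6.02% of all promoters. It occurred 0 times in the windows of Cd2ap, Rin3, Abca7 and Cass4. AGGAAGT, a core of the sites of the myeloid factor PU.1, was in 0 of the windows of these 6 genes and in 7.69% of all promoters, both strands searched. GGGCGG was found 6 times for Picalm, once in the printed window of Sorl1 and 0 times for Cass4, and in 32.7% of all promoters. The windows of Rin3 held 2 and 1 matches of it, that of Abca7 held 1 and that of Cd2ap 0. In the printed windows no match of 1 motif overlapped a match of another, and a match is a match of letters only.

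Among the genes of uptake, Bin1 (gene ID 30948, chromosome 18, 32376618 to 32435740, protein-coding) encodes a protein that bends membranes into tubules. It stood at 723 and 555 CPM in the AD libraries and at 722 and 428 CPM in the AD/KO libraries. The replicates 1 of both groups were equal to within 2 CPM, and the lowest library was AD/KO replicate 2. The group means were 639 ± 119 and 575 ± 208 CPM (SD, n = 2 each), a log2 fold change of −0.15 (SE 0.49) with an adjusted p of 0.905 (edgeR quasi-likelihood, Benjamini-Hochberg). Leaving out AD/KO replicate 2 gave 0.19, leaving out AD replicate 1 gave 0.04, and leaving out AD/KO replicate 1 gave −0.53. On the other strand, A830052D11Rik covers 6.22% of the exon bases of Bin1 in GENCODE. It had 217 to 596 counts, against 7893 to 13850 for Bin1.

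Picalm (gene ID 233489, chromosome 7, 90130192 to 90209447, protein-coding) encodes a clathrin adaptor that sets the size of coated vesicles. It stood at 521 and 409 CPM in AD and at 420.5 and 196 CPM in AD/KO. AD/KO replicate 2 held 46.7% of the level of AD/KO replicate 1. AD/KO replicate 1 lay between the 2 AD libraries, so the groups overlapped. Its log2 fold change was −0.59 (SE 0.51), with an adjusted p of 0.703 (edgeR quasi-likelihood, Benjamini-Hochberg). Leaving out AD/KO replicate 2 gave −0.13 and leaving out AD/KO replicate 1 gave −1.19.

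Cd2ap (gene ID 12488, chromosome 17, 42748887 to 42876707, protein-coding) encodes an adaptor that ties endocytic membranes to actin. It was at 172 and 113 CPM in AD and 111 and 69.0 CPM in AD/KO. The groups did not overlap, but AD replicate 2 and AD/KO replicate 1 differed by under 2 CPM. The log2 fold change was −0.66 (SE 0.40), with an adjusted p of 0.680 (edgeR quasi-likelihood, Benjamini-Hochberg). It came to −0.34 with AD replicate 1 left out, to −0.35 with AD/KO replicate 2 left out and to −0.998 with AD/KO replicate 1 left out. A pseudogene, Gm6475, matches its transcript at 98.3% over 175 bases and had 49 to 76 counts per library, against 1271 to 2375 for Cd2ap.

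Rin3 (gene ID 217835, chromosome 12, 102282840 to 102390854, protein-coding) encodes an exchange factor that activates the early endosome GTPase Rab5. It was at 178 and 125 CPM in AD and 134 and 43.1 CPM in AD/KO, so that AD/KO replicate 1 again lay inside the AD range. AD/KO replicate 2 held 32.1% of the level of AD/KO replicate 1. The log2 fold change was −0.77 (SE 0.61), with an adjusted p of 0.690 (edgeR quasi-likelihood, Benjamini-Hochberg). With AD/KO replicate 2 left out it came to −0.16, with AD replicate 1 left out to −0.49 and with AD/KO replicate 1 left out to −1.76.

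Sorl1 (gene ID 20660, chromosome 9, 41964709 to 42124297, protein-coding), a receptor that steers the amyloid precursor protein away from late endosomes, showed the opposite order of libraries. It was at 197 and 436 CPM in AD and 255 and 503 CPM in AD/KO. In both groups replicate 2 was the high library, by 2.21 times in AD and 1.97 times in AD/KO. The difference between replicates was thus larger than that between groups, whose log2 fold change was 0.26 (SE 0.59) with an adjusted p of 0.865 (edgeR quasi-likelihood, Benjamini-Hochberg). It was −0.22 without AD replicate 1 and −0.30 without AD/KO replicate 2, but 1.001 without AD replicate 2 and 0.72 without AD/KO replicate 1. The antisense gene Gm16214 inside Sorl1 had 80 to 206 counts, against 2717 to 9263 for Sorl1.

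Abca7 (gene ID 27403, chromosome 10, 79996453 to 80015572, protein-coding), a phospholipid transporter, followed the same order at a smaller range, with 107 and 162 CPM in AD and 132 and 172 CPM in AD/KO. The groups overlapped, and replicate 2 was again the high library in both, by 1.52 and 1.31 times. Its log2 fold change was 0.18 (SE 0.37), with an adjusted p of 0.852 (edgeR quasi-likelihood, Benjamini-Hochberg), and it lay on either side of 0 when 1 library was left out. The value came to −0.10 with AD replicate 1 left out, −0.02 with AD/KO replicate 2 left out, 0.57 with AD replicate 2 left out and 0.41 with AD/KO replicate 1 left out. In Sorl1 and Abca7 the libraries with more signal were those with more neuronal and astrocytic marker signal within each group. Across the groups, AD replicate 2 and AD/KO replicate 1 both had a mean log2 CPM of 6.39 for these markers. In these libraries, in that order, Sorl1 was at 436 and 255 CPM and Abca7 at 162 and 132 CPM. AD replicate 2 also had the neutrophil signal. The part of the neuronal and astrocytic signal or of the neutrophil signal in these levels was not tested.

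Of the genes of adhesion and actin, Ptk2b (gene ID 19229, chromosome 14, 66153257 to 66281100, protein-coding), which encodes the integrin-responsive tyrosine kinase Pyk2, was the most level of the 9. It was at 166 and 160.0 CPM in AD and 159.6 and 161.5 CPM in AD/KO, a ratio of 1.04 between the highest and the lowest library. The log2 fold change was −0.02 (SE 0.29), with an adjusted p of 0.981 (edgeR quasi-likelihood, Benjamini-Hochberg). The microglia markers were not level over the same libraries, and with scaling to them the log2 fold change of Ptk2b was 0.87 (SE 1.02). In RefSeq, Gm52098 (29 to 68 counts) and Gm52099 (14 to 56 counts) lie within Ptk2b, which had 2283 to 3062 counts.

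Abi3 (gene ID 66610, chromosome 11, 95830072 to 95842476, protein-coding), a hematopoietic member of the Abl interactor family, whose proteins act in the actin-branching WAVE complex, had the widest range. It was at 882 and 470.2 CPM in AD and 747 and 192 CPM in AD/KO, a ratio of 4.58 between the highest and the lowest library. Replicate 2 was the low library in both groups, at 0.533 times replicate 1 in AD and 0.258 times in AD/KO. The log2 fold change was −0.53 (SE 0.78), with an adjusted p of 0.797 (edgeR quasi-likelihood, Benjamini-Hochberg). Among the AD/KO libraries, leaving out replicate 2 gave 0.15 and leaving out replicate 1 gave −1.76. Among the AD libraries, leaving out replicate 1 gave −9.53e-04 and leaving out replicate 2 gave −0.84. Phospho1 and Gngt2 overlap Abi3 on the other strand and had 114 to 402 and 202 to 735 counts, against 3547 to 14323 for Abi3. In GENCODE the longest Abi3 transcript also overlaps Zfp652 on the other strand, which had 1757 to 2506 counts. There Zfp652 covers 70.1%, Phospho1 41.1% and Gngt2 5.63% of the exon bases of Abi3. Whether the counting used strand was not given in the sources used here.

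Cass4 (gene ID 320664, chromosome 2, 172393644 to 172433752, protein-coding), a scaffold of the Cas family at focal adhesions, had the lowest mean level per kilobase of the 9, though in AD replicate 1 Abca7 was lower (16.05 against 16.13 CPM per kb). It was at 58.1 and 31.5 CPM in AD and 39.7 and 12.9 CPM in AD/KO, with AD/KO replicate 1 between the AD libraries. The log2 fold change was −0.77 (SE 0.64), with an adjusted p of 0.698 (edgeR quasi-likelihood, Benjamini-Hochberg). With AD/KO replicate 2 left out this was −0.16, with AD replicate 1 left out −0.26 and with AD/KO replicate 1 left out −1.75. An antisense gene, Gm14455, covers 21.2% of its exon bases in GENCODE and was not analysed here.

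Levels per kilobase used the longest GENCODE transcript linked to a RefSeq mRNA entry, or the longest transcript where none was linked. On this scale the order of mean level was Bin1 (252 CPM per kb), Abi3 (143), Picalm (47.1), Ptk2b (40.1), Sorl1 (32.4), Rin3 (30.8), Cd2ap (21.7), Abca7 (21.5) and Cass4 (9.87). Bin1 had rank 1 and Abi3 rank 2 in each of the 4 libraries. The place of Abi3 rests on a transcript of 4006 bases, and a shorter one would raise its level per kilobase. Every pair of neighbours in this order overlapped in their range over the 4 libraries. Sorl1 had rank 7 in AD replicate 1 and rank 3 in AD/KO replicate 2, whereas Rin3 had ranks 4 and 8.

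The likeness of each gene's pattern to the marker lists was measured as the Euclidean distance between log2 CPM profiles over the 4 libraries, each centred on its own mean, so that a small distance means a like pattern. Picalm, Rin3, Abi3 and Cass4 lay nearest to the microglia markers among 13 lists, at distances of 0.48, 0.31, 0.31 and 0.35. Rin3 and Cass4 were 0.26 apart, and Abi3 and Cass4 0.29 apart, the 2 closest pairs among the 9 genes. Sorl1 lay 2.46 and Abca7 1.92 from the microglia markers. Sorl1 was nearest to the ependymal and choroid list (0.33) and then to the oligodendrocyte list (0.36). Abca7 (0.48) and Ptk2b (0.19) were nearest to the list of dissociation response genes, whose mean varied little over the libraries. Single genes of that list did vary, in both directions. Between AD replicate 1 and AD/KO replicate 2, Atf3 fell from 16.8 to 1.95 CPM, whereas Nr4a1 rose from 19.3 to 65.2 CPM. Bin1 was also nearest to the mean of the dissociation response list (0.72) and Cd2ap to border macrophages (0.42). These distances rest on 4 libraries that differ in their makeup, and they show no cell of origin.

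The single genes with the most similar profile among 13760 with a mean of at least 5 CPM were Raver1 for Bin1, Cyp4v3 for Picalm, Tent2 for Cd2ap, Tbxas1 for Rin3, Gpr137c for Sorl1, Ndufc1 for Abca7, Specc1 for Ptk2b, Epha2 for Abi3 and Zfp456 for Cass4, at distances of 0.014 to 0.045. At the wider distance of 0.5 a like pattern was common. From 478 genes (Sorl1) to 4612 genes (Ptk2b) lay within 0.5 of a member.

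**Figure D2:**
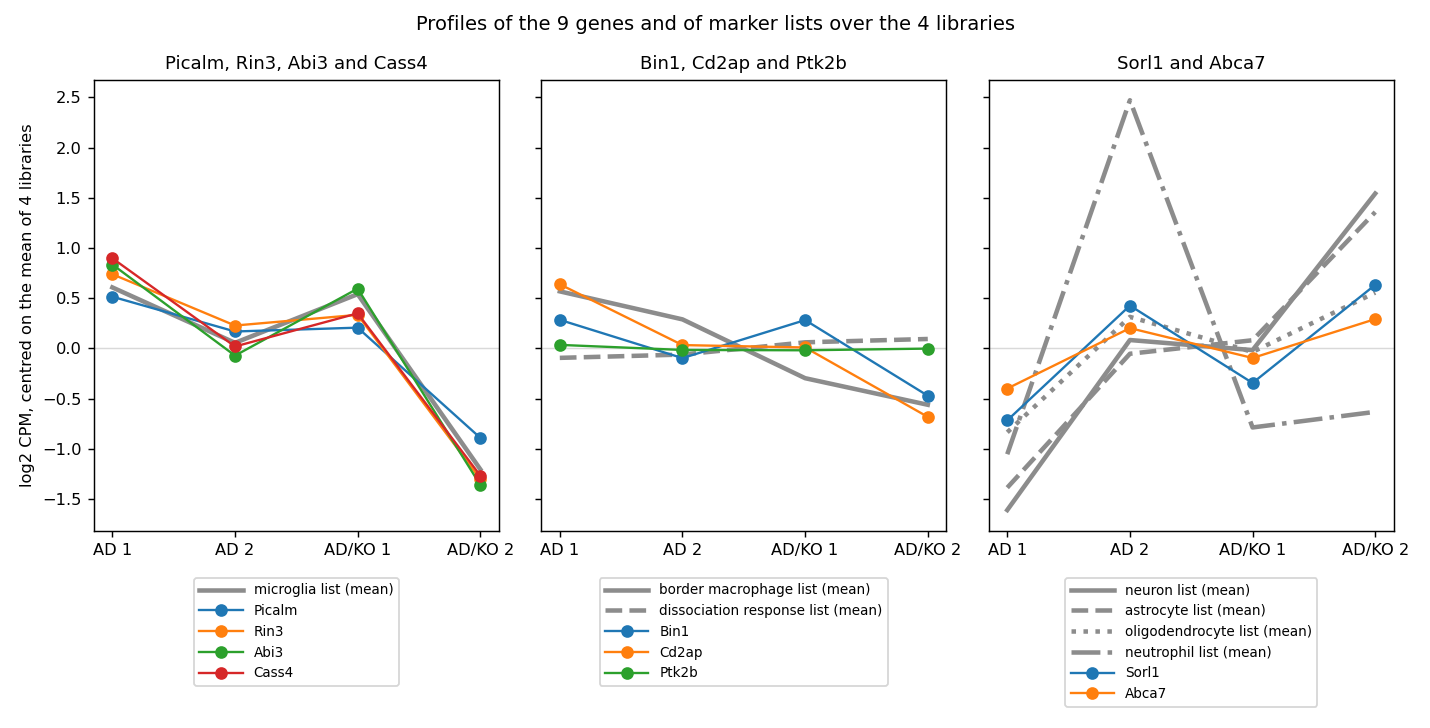
Log2 CPM of the 9 genes (points) and of the means of marker lists (thick grey lines; solid, dashed, dotted or dash-dotted as named in each panel) in the 4 libraries, each centred on its mean over the libraries; lines only join the libraries for reading. Picalm, Rin3, Abi3 and Cass4 lie along the microglia list, Ptk2b is near 0 throughout, and Sorl1 and Abca7 are high in replicate 2 of both groups.

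Each gene was then set against the microglia markers within its own library, as its log2 CPM minus the mean log2 CPM of the 20 markers. Abi3 moved by 2.20 on the log2 CPM scale over the 4 libraries but by 0.38 relative to the markers, from 0.42 in AD replicate 1 to 0.03 in AD/KO replicate 2. Rin3 moved by 2.04 on the log2 CPM scale and by 0.38 relative to the markers, and Cass4 by 2.16 and 0.48. Picalm moved by 1.41 and 0.65 and Cd2ap by 1.32 and 1.05, whereas the range of Bin1, Sorl1, Abca7 and Ptk2b was wider relative to the markers. These ranges restate the distances above and are no separate evidence. The part of the microglial signal in the levels of the 9 genes was not tested.

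Relative to the markers, Rin3 stood at −1.89 and −1.85 in AD and −2.23 and −2.12 in AD/KO, and Cass4 at −3.50 and −3.83 in AD and −3.99 and −3.86 in AD/KO. These were the 2 genes of the 9 that were lower in both AD/KO libraries on this scale, as were 6.04% of all genes tested, and 0 of 9 were higher in both, against 8.72%. For Cass4 the replicates 2 of both groups were nearly equal. In the edgeR quasi-likelihood fit scaled to the markers, the log2 fold change of Rin3 was −0.30 (SE 0.95, adjusted p = 0.934) and that of Cass4 −0.27 (SE 0.96, adjusted p = 0.945). Sorl1 had the widest range relative to the markers, from −1.74 in AD replicate 1 and −1.30 in AD/KO replicate 1 to −0.05 in AD replicate 2 and 1.42 in AD/KO replicate 2.

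The 9 genes have close paralogs, and all 26 listed had a mean of at least 1 CPM. Of the 26, 0 had an adjusted p under 0.05, against 0% of all genes tested (edgeR quasi-likelihood, Benjamini-Hochberg). An unadjusted p under 0.05 was found in 2, against 5.0% of all genes tested. The estimate was higher in AD/KO for 15 and lower for 11, and it was lower for 52.8% of all genes tested. The share that each of the 9 genes took of its family's level per kilobase, over the paralogs listed, shows which of them dominated in each library.

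Picalm held 95.2% and 80.0% of the level of its pair with Snap91 in AD and 84.1% and 47.8% in AD/KO. Snap91, the clathrin adaptor of synapses, was at 13.8 and 54.0 CPM in AD and 42.0 and 113 CPM in AD/KO. The lowest share of Picalm and the highest level of Snap91 fell in AD/KO replicate 2, the library with the most neuronal marker signal. Bin1 held 58.9% to 67.5% of its family. Bin2, a relative found in blood cells, was at 369.5 CPM in AD replicate 1 and 99.5 CPM in AD/KO replicate 2. Amph, the amphiphysin of synapses, was at 11.8 and 88.2 CPM in the same libraries. Bin3 was at 19.2 to 43.3 CPM.

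Cass4 held 66.5% and 29.0% of its family in AD and 43.0% and 10.3% in AD/KO, the widest swing of the 9. Its broadly expressed relative Bcar1 (p130Cas) was at 13.3 and 32.8 CPM in AD and 29.6 and 64.6 CPM in AD/KO, Nedd9 at 7.82 to 26.5 CPM and Efs at 5.59 to 21.1 CPM. Abi3 held 83.7% and 76.1% of the ABI family in AD and 83.6% and 59.5% in AD/KO. Abi1 was at 77.1 to 132 CPM and Abi2 at 23.7 to 58.2 CPM. Ptk2b held 81.7% to 58.6% of its pair with Ptk2, the focal adhesion kinase, which was at 42.9 and 84.6 CPM in AD and 75.2 and 132 CPM in AD/KO.

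Rin3 shared its family with Rin2, which was higher per kilobase over the 4 libraries (44.1 against 30.8 CPM per kb). Rin2 was at 283 and 208 CPM in AD and 228 and 102 CPM in AD/KO. Rin1, known from neurons, was at 6.39 and 14.8 CPM in AD and 18.7 and 46.3 CPM in AD/KO, and Rinl was at 11.6 to 35.8 CPM. Cd2ap held 52.4% to 57.8% of its pair with Sh3kbp1 (CIN85), the narrowest range of the 9 genes. Sh3kbp1 was at 171 and 141 CPM in AD and 119 and 71.0 CPM in AD/KO, with a log2 fold change of −0.71 (SE 0.38) and an adjusted p of 0.680 (edgeR quasi-likelihood, Benjamini-Hochberg). Its libraries lay in the same order as those of Cd2ap.

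In the VPS10 receptor family, Sort1 (sortilin) was near Sorl1 in total CPM but ran the other way, at 407 and 325 CPM in AD and 382 and 252 CPM in AD/KO. Sorcs2 and Sorcs3, receptors of neurons, were the 2 paralogs with an unadjusted p under 0.05. Sorcs2 was at 8.42 and 21.7 CPM in AD and 36.5 and 87.5 CPM in AD/KO, which gave a fitted log2 difference of 2.04 (SE 0.66) that did not pass (adjusted p = 0.680, edgeR quasi-likelihood, Benjamini-Hochberg). Sorcs3 was at 5.01 and 15.1 CPM in AD and 21.3 and 59.2 CPM in AD/KO, and Sorcs1 at 13.4 to 51.7 CPM. Neuronal marker signal was also higher in AD/KO replicate 2 than in any other library, and its part in the level of the Sorcs genes was not tested.

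Abca7 took 5.11% to 11.7% of the level per kilobase of the 9 ABCA genes listed. Abca9 and Abca1, the cholesterol exporter, were the highest in AD replicate 1, at 916 and 883 CPM, and stood at 222 and 321 CPM in AD/KO replicate 2. Abca2, a transporter of myelinating cells, ran the other way from 340.0 to 760.3 CPM in the same libraries, and Abca3 was at 130.4 to 158 CPM. Abca4, Abca5, Abca8a and Abca8b were each at 37.0 CPM or less in every library.

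**Figure D3:**
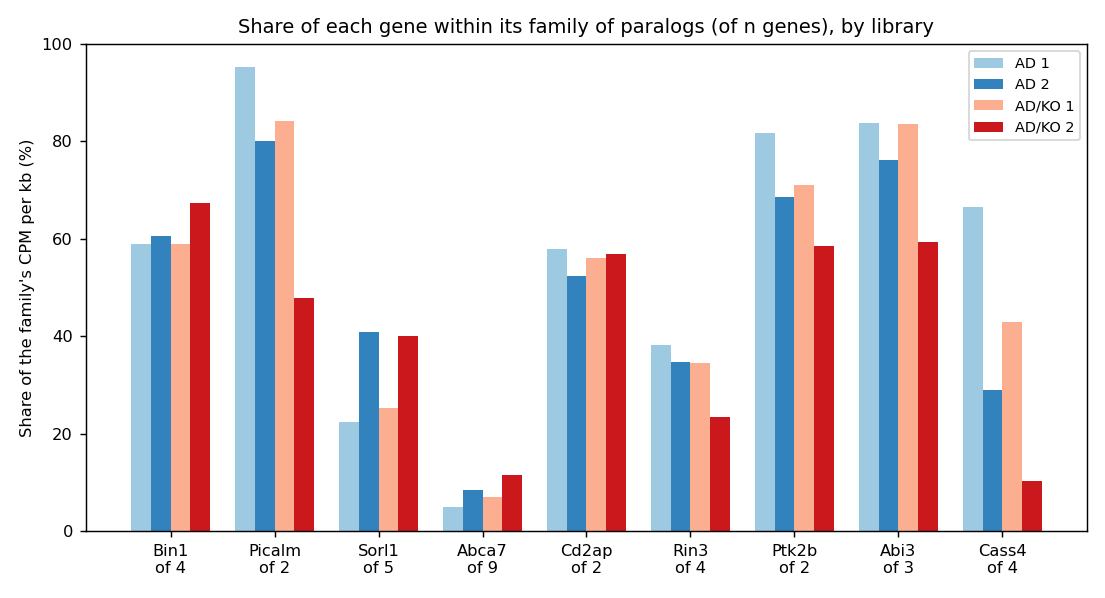
Share of each gene in the summed CPM per kilobase of the 2 to 9 genes listed for its family (vertical axis, percent, from 0 to 100), 1 bar per library. The share of Picalm runs from 95.2% in AD replicate 1 to 47.8% in AD/KO replicate 2 and that of Cass4 from 66.5% to 10.3%, while that of Cd2ap stays between 52.4% and 57.8%.

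The other genes of the same routes were read from 4 lists. Over all genes tested, 5.0% had an unadjusted p under 0.05 (edgeR quasi-likelihood), 52.8% were estimated lower in AD/KO, and the median log2 fold change was −0.05. Of 34 clathrin endocytosis genes, 0 had an adjusted p under 0.05 and 0 an unadjusted p under 0.05 (edgeR quasi-likelihood, Benjamini-Hochberg). The estimate was higher in AD/KO for 24 and lower for 10, with a median log2 fold change of 0.26. The genes of smallest p were Sh3gl3 (4.50 and 8.54 CPM in AD, 11.4 and 25.8 CPM in AD/KO) and Cltb (33.0 and 51.9, then 53.6 and 105 CPM) among the higher, and Dab2 (51.0 and 36.9, then 26.6 and 26.0 CPM) and Fcho2 (155 and 120, then 102 and 60.1 CPM) among the lower. Sh3gl3 is an endophilin, Cltb a clathrin light chain, Dab2 a cargo adaptor and Fcho2 a protein that starts coated pits. The groups did not overlap in 10 of the 34 genes (7 higher, 3 lower), these 4 among them, against 42.0% of all genes tested. The neuron markers (18 genes) were at 730 and 2287 summed CPM in AD and 1942 and 5874.5 in AD/KO. The border macrophage markers (8 genes) were at 134 and 102, then 69.65 and 60.0 summed CPM. The part of either list in the values of these genes was not tested.

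Of 34 endosomal sorting genes, 0 had an adjusted and 0 an unadjusted p under 0.05 by the same test, and the estimates split evenly (17 higher, 17 lower, median −0.01). The genes of smallest p were Rab4a (6.10 and 9.71 CPM in AD, 9.49 and 17.5 CPM in AD/KO) and Gga1 (89.4 and 82.9, then 106 and 114 CPM) among the higher, and Snx6 (59.4 and 48.8, then 48.5 and 27.9 CPM) and Vps26a (51.5 and 47.1, then 45.5 and 23.7 CPM) among the lower. Rab4a serves fast recycling, Gga1 sorts cargo at the Golgi, and Snx6 and Vps26a belong to the retromer route that also handles Sorl1. The groups did not overlap in 52.9% of the 34 genes (10 higher, 8 lower), against 42.0% of all genes tested.

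Of 32 adhesion signalling genes, 0 had an adjusted p under 0.05 (edgeR quasi-likelihood, Benjamini-Hochberg). An unadjusted p under 0.05 was found in 2, both lower in AD/KO, against 5.0% of all genes tested. The estimate was lower for 25 and higher for 7, with a median of −0.39. The groups did not overlap in 34.4% of the 32 genes (1 higher, 10 lower), against 42.0% of all genes tested. The integrin subunit Itga4 was at 43.3 and 61.8 CPM in AD and 17.3 and 17.6 CPM in AD/KO, which gave a fitted log2 difference of −1.59 (SE 0.32) that did not pass (adjusted p = 0.680, edgeR quasi-likelihood, Benjamini-Hochberg). The myeloid Src-family kinase Fgr was at 34.2 and 60.7 CPM in AD and 13.5 and 9.33 CPM in AD/KO, with a fitted log2 difference of −2.05 (SE 0.43, adjusted p = 0.680, edgeR quasi-likelihood). Itga4 and Fgr were highest in AD replicate 2. The neutrophil markers (14 genes) were at 419 and 5448 summed CPM in AD and 564 and 644 in AD/KO. The monocyte markers (6 genes) were at 208 and 344 summed CPM in AD and 71.0 and 91.4 in AD/KO. The part of either list in these values was not tested. The higher genes of smallest p were Src (73.4 and 77.8, then 110.0 and 151 CPM) and Parva (8.78 and 20.6, then 20.0 and 53.0 CPM).

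Of 22 genes of the WAVE and Arp2/3 complexes, 0 had an adjusted p under 0.05 (edgeR quasi-likelihood, Benjamini-Hochberg). An unadjusted p under 0.05 was found in 1 (Actr3), against 5.0% of all genes tested. The estimate was lower for 15 and higher for 7, with a median of −0.33. The groups did not overlap in 40.9% of the 22 genes (3 higher, 6 lower), against 42.0% of all genes tested. Actr3, a core subunit of Arp2/3, was at 159.8 and 182 CPM in AD and 108 and 87.4 CPM in AD/KO, which gave a fitted log2 difference of −0.80 (SE 0.31, adjusted p = 0.680, edgeR quasi-likelihood). Arpc5, another subunit, was at 66.4 and 88.0 CPM in AD and 54.5 and 37.8 CPM in AD/KO. Actr3 and Arpc5 were also highest in AD replicate 2, and the part of its neutrophil signal in their levels was not tested. Wasf3 and Wasf1, the WAVE proteins known from brain cells, were the higher genes of smallest p, at 29.8 and 77.0, then 84.6 and 223 CPM, and at 3.63 and 11.9, then 12.7 and 33.8 CPM. With scaling to the microglia markers the medians of the 4 lists were 1.24, 0.91, 0.15 and 0.37 in the order given, beside 0.79 for all genes.

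**Figure D4:**
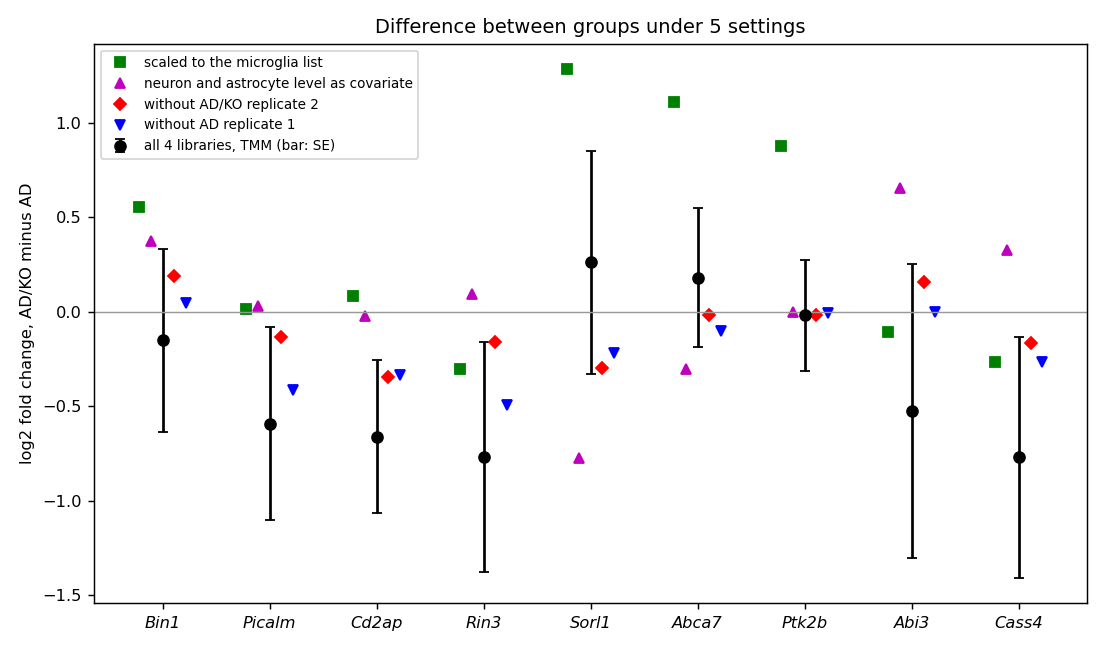
Log2 fold change of AD/KO minus AD (vertical axis) for the 9 genes with all 4 libraries (black, bar: SE) and under 4 other settings. For Sorl1 the values run from −0.77 with the neuron and astrocyte level as a covariate to 1.28 with scaling to the microglia list, and for Picalm, Rin3 and Cass4 the values without AD/KO replicate 2 are −0.13, −0.16 and −0.16.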

How the data were processed

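The authors deposited 1 table of raw read counts per gene and library. Per the submitters' processing notes, FastQC, HISAT2, SAMtools, featureCounts (Subread) and DESeq2 1.30.0 were used with build mm10; per the labels' protocols, RNA was extracted with TRIzol, depleted of rRNA and made into stranded libraries. The annotation and the strand setting of the counting were not given in the sources used here. The 9 genes and all lists were chosen with earlier results of these data known. In each table, 11 broken lines were dropped, which left 4 genes without a count. Genes were filtered with edgeR 4.0.16 filterByExpr (minimum count 10), scaled by TMM and tested with the quasi-likelihood test over all 4 libraries, adjusted by Benjamini-Hochberg over all genes at 0.05, after a test of the code on simulated data. R was 4.3.3, limma 3.58.1 and, as an alternative, DESeq2 1.42.0. Log2 CPM used a prior count of 2. All 9 genes were named, with each paralog of at least 1 CPM on average, the 2 genes of smallest p in each direction per pathway list and the most similar gene of at least 5 CPM. Promoters and coordinates are from RefSeq and GENCODE on GRCm38.p6, and near-identical transcripts were searched with BLAST 2.17.0. The alternatives were another scaling, test or filter, leaving out each library, a replicate block and a covariate.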

Additional observations from a re-analysis of the deposited data

How the results depend on the processing

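With edgeR on all 4 libraries 0 genes passed (1072 at an unadjusted p under 0.05). The count was 88 with DESeq2, 4333 with the replicate block and 0 to 524 over the fits that leave out 1 library (48 without AD replicate 1, 524 without AD replicate 2). Of the 9 genes, 3 passed with the replicate block (Cd2ap −0.67, adjusted p = 0.0345; Rin3 −0.96, adjusted p = 0.0485; Cass4 −0.91, adjusted p = 0.0278; edgeR quasi-likelihood) and 0 in every other fit run. The labels do not say that replicate numbers pair the libraries, and the deviations of same-numbered libraries correlated at 0.68 across genes. Scaling to the microglia markers gave a median log2 fold change of 0.08 for the 9 genes, 1.24 for clathrin endocytosis, 0.91 for endosomal sorting, 0.15 for adhesion signalling, 0.37 for WAVE and Arp2/3 and 0.79 for all genes. With the neuron and astrocyte level as a covariate these were 0.03, 0.0051, 0.025, −0.01, 0.047 and 0.0019. Endosomal sorting had a median of 0.031 with DESeq2, 0.039 with its size factors, −0.025 without a filter and −0.090 over protein-coding genes, and all genes 0.043 and −0.0032 with DESeq2 and its size factors. Leaving out 1 library gave medians of −0.998 to −0.13 for the 9 genes, 0.023 to 0.54 for clathrin endocytosis, −0.023 to 0.097 for endosomal sorting, −1.01 to −0.051 for adhesion signalling, −0.61 to 1.23e-04 for WAVE and Arp2/3 and −0.043 to 0.063 for all genes. The sign turned with scaling to the microglia markers for Bin1 (0.56), Picalm (0.011), Cd2ap (0.084) and Ptk2b (0.87). With the covariate it turned for Bin1 (0.37), Picalm (0.028), Rin3 (0.093), Sorl1 (−0.77), Abca7 (−0.30), Abi3 (0.65) and Cass4 (0.33). Ptk2b turned to 0.019 and 0.027 with DESeq2 and its size factors. Leaving out 1 library gave −0.53 to 0.19 for Bin1, −1.19 to −0.13 for Picalm, −0.998 to −0.34 for Cd2ap, −1.76 to −0.16 for Rin3, −0.30 to 1.001 for Sorl1, −0.10 to 0.57 for Abca7, −0.018 to 0.041 for Ptk2b, −1.76 to 0.15 for Abi3 and −1.75 to −0.16 for Cass4. The cause of these shifts was not tested. A group left with 1 library was assumed to vary like the other. Each group had 2 libraries, the biological coefficient of variation was 44.5%, and the effect of depth was not tested.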
